A study of Caenorhabditis elegans with 6 samples.

Results

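The genes described here make the small-molecule neurotransmitters of Caenorhabditis elegans or load them into synaptic vesicles. They are tph-1, cat-1, cat-2, tdc-1, tbh-1, unc-17, cha-1, unc-25, unc-47 and eat-4, 10 genes on an array that gives 25478 genes a transcript cluster (the set of probes that stands for a transcribed locus) of their own. Each was taken by its symbol in the platform annotation. Of the 10 genes, 8 have 1 cluster each, while unc-17 and cha-1, whose spans overlap in the RefSeq gene table, are annotated together on 1 cluster, so the 10 genes give 9 measured values. The value of that shared cluster cannot be assigned to unc-17 or to cha-1.

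RNA of whole hermaphrodites of the wild-type strain N2 was hybridised to 6 arrays. The C-SPION group, 3 arrays, came from animals that spent 24 h in M9 buffer at 50% with 500 µg/mL of C-SPIONs, superparamagnetic nanoparticles of iron oxide with a coat of citrate. The control group, also 3 arrays, came from animals that spent the same 24 h in the buffer without particles. All animals had grown from synchronised L1 larvae for 48 h on plates of Escherichia coli OP50 up to the L4 larval stage, and both incubations were at 20 °C. Neither medium is described as holding food.

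A neuron that releases a classical transmitter needs an enzyme that makes it and a transporter in the vesicle membrane that packs it, and the genes for these proteins are used as markers of the transmitter a neuron uses. In C. elegans acetylcholine and GABA act at the neuromuscular junctions that drive locomotion, glutamate is used by many sensory neurons and interneurons, and the monoamines serotonin, dopamine, tyramine and octopamine come from small numbers of neurons and modulate feeding, egg laying and movement. The octopamine and tyramine enzymes are also made outside neurons, in the gonadal sheath, and the tyramine enzyme in the uv1 cells beside the uterus. In whole-animal RNA, fewer cells of a type and less RNA per cell cannot be told apart.

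The comparison of C-SPION with control animals asked whether these genes differ after the exposure. None of the 9 clusters passed the test across all clusters (limma, Benjamini-Hochberg adjusted p from 0.336 to 0.996). The differences covered a range of over 1 log2 unit. The GABA genes unc-47 and unc-25 stood lowest, at -1.03 and -0.79 on the log2 scale, C-SPION minus control, while the octopamine gene tbh-1 stood highest at +0.24. Of the 9 clusters, 7 had a negative difference, against 46.7% of all 26192 clusters tested. The median of the 9 was -0.34, against 0.04 for all tested clusters. It was -0.58 without C-SPION 1 and -0.17 without control 2.

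**Figure D1:**
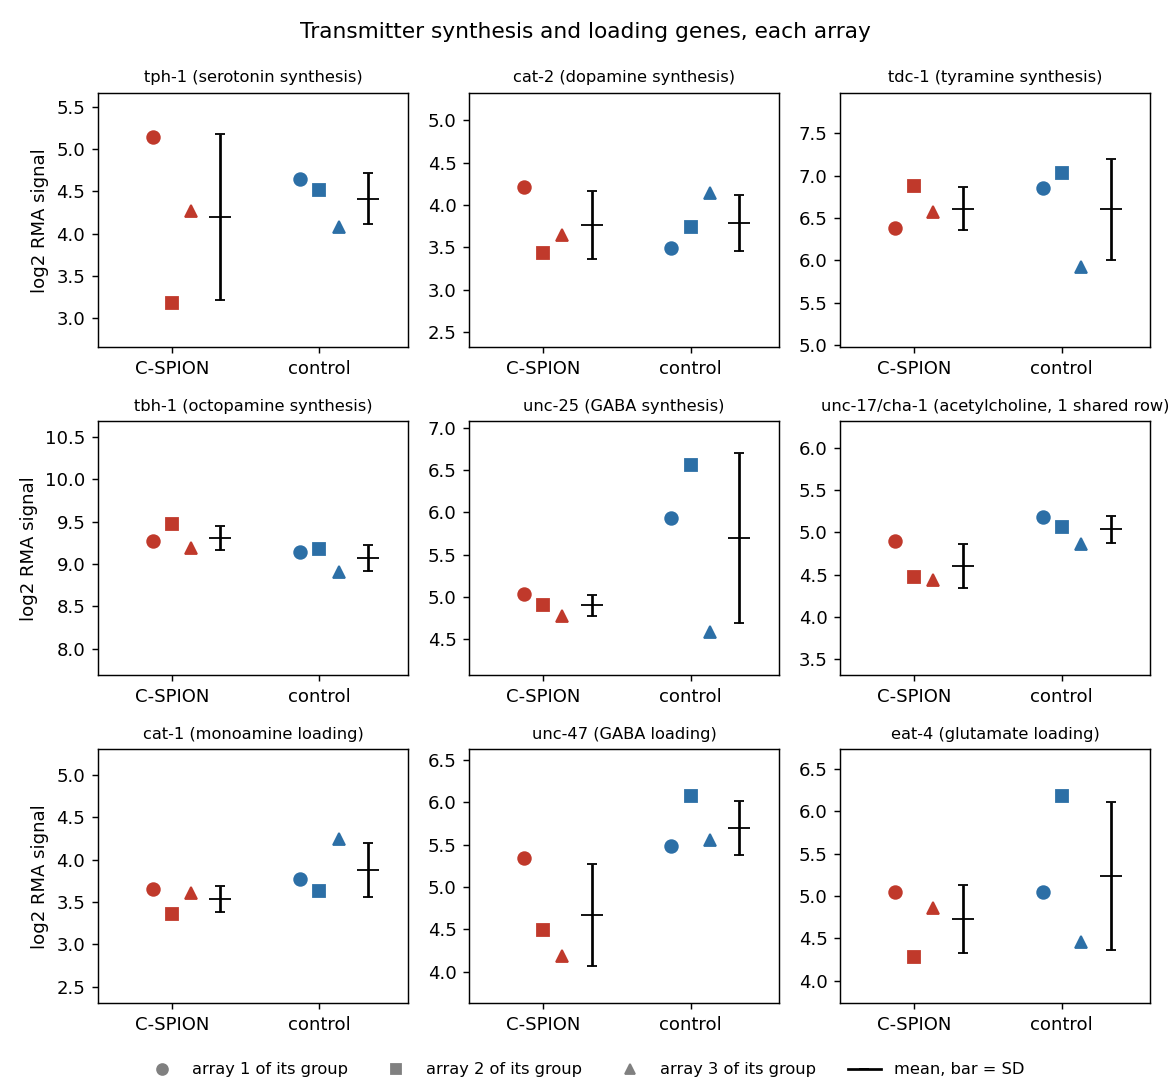
Each panel plots the log2 RMA signal of 1 cluster on the 6 arrays, C-SPION on the left in red and control on the right in blue; symbols give the array number, black bars the mean and SD of 3 arrays, and every panel spans the same height in log2 units. In the unc-47 panel the C-SPION arrays lie between 4.18 and 5.34, all below the control arrays; the groups overlap in every other panel except that of tbh-1.

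Among all tested clusters limma called 0, or 0%, at an adjusted p under 0.05 in either direction. At an unadjusted p under 0.05 it had 12.5% of clusters, 7.3% lower and 5.22% higher with C-SPIONs. Of the 9 transmitter clusters, 1 was under 0.05 unadjusted, namely unc-47, and it was lower. The ordinary linear model also called 0 clusters after adjustment, and had 0 of the 9 under 0.05 unadjusted. Without C-SPION 1, limma called 63 clusters of the whole table, 6 higher and 57 lower, and 0 of the 9 transmitter clusters. The groups did not overlap in 1 transmitter cluster that was lower and 1 that was higher, against 9.24% and 9.4% of all clusters.

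GABA is made by the glutamate decarboxylase that unc-25 encodes and packed by the vesicular transporter that unc-47 encodes. The unc-47 signal was 5.34, 4.49 and 4.18 in C-SPION 1 to 3, against 5.49, 6.07 and 5.55 in control 1 to 3. Every C-SPION array lay below every control array, though C-SPION 1 was only slightly below control 1. The means were 4.67 ± 0.60 with C-SPIONs and 5.70 ± 0.32 in controls (SD, n = 3 each), a log2 difference of -1.03 (95% interval -1.84 to -0.23, adjusted p = 0.336 by limma). The C-SPION mean thus corresponds to a 2.05-fold lower signal. This was the only interval among the 9 clusters that did not hold 0, and 0 lay within the other 8. The unc-47 difference was -1.37 without C-SPION 1 and -0.79 without C-SPION 3. Its unadjusted p by limma was 0.056 without C-SPION 2, 0.066 without C-SPION 3 and 0.067 without control 2. The ordinary linear model on all 6 arrays gave an unadjusted p of 0.058.

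The unc-25 signal was 5.03, 4.90 and 4.78 in C-SPION 1 to 3, against 5.93, 6.56 and 4.59 in control 1 to 3. The C-SPION arrays were close together, and the control arrays spanned a wide range, with control 3 the lowest of all 6. The means were 4.90 ± 0.13 with C-SPIONs and 5.69 ± 1.01 in controls (SD, n = 3 each), a difference of -0.79 (95% interval -1.90 to 0.32, adjusted p = 0.523 by limma). The size rested on single controls: the unc-25 difference was -0.36 without control 2 and -1.34 without control 3.

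Further genes that handle GABA were read beside these. The gene unc-46 encodes a membrane protein that directs the vesicular GABA transporter to synaptic vesicles, and its signal was 3.57, 3.69 and 3.32 with C-SPIONs, against 4.18, 4.77 and 4.07 in controls. The plasma membrane GABA transporter gene snf-11 was at 5.26, 4.74 and 4.66 with C-SPIONs, against 5.61, 5.97 and 5.62 in controls. In both genes every C-SPION array lay below every control array, with differences of -0.81 (95% interval -1.41 to -0.22, adjusted p = 0.322 by limma) for unc-46 and -0.85 (95% interval -1.41 to -0.28, adjusted p = 0.303 by limma) for snf-11. The GABA transaminase gene gta-1, named here after its values were seen, averaged 9.57 ± 0.06 with C-SPIONs and 9.62 ± 0.18 in controls, a difference of -0.05 (95% interval -0.51 to 0.40) that turned to +0.047 without control 2 and +0.02 after median centring. This enzyme breaks GABA down and is not particular to neurons. For unc-46 and snf-11 too, which cells gave the signal was not tested. None of the 5 GABA genes passed, and their grouping by transmitter was made after values had been seen.

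Acetylcholine is made by choline acetyltransferase, the product of cha-1, and packed by the vesicular transporter that unc-17 encodes. Both genes belong to 1 cholinergic locus with a shared start of transcription, and the array measures them in the 1 cluster named above. Its signal was 4.90, 4.47 and 4.44 in C-SPION 1 to 3, against 5.18, 5.06 and 4.86 in control 1 to 3. The groups overlapped only through C-SPION 1, which lay just above control 3. The means were 4.60 ± 0.26 with C-SPIONs and 5.03 ± 0.16 in controls (SD, n = 3 each), a difference of -0.43 (95% interval -0.94 to 0.08, adjusted p = 0.458 by limma). The high-affinity choline transporter gene cho-1, named after its values were seen, stood at -0.16 (95% interval -0.87 to 0.55) and at +0.037 without C-SPION 1. Of the acetylcholinesterase genes, ace-3 and ace-2 stood at -0.80 (95% interval -1.83 to 0.23) and -0.56 (95% interval -1.31 to 0.19). Without C-SPION 2 ace-3 was at -0.38, and without C-SPION 3 ace-2 was at -0.34. The remaining acetylcholinesterase genes, ace-1 and ace-4, named after their values were seen, stood at -0.0033 (95% interval -0.55 to 0.55), which turned to +0.07 after median centring, and -0.16 (95% interval -0.74 to 0.41).

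Glutamate is packed by the vesicular transporter that eat-4 encodes. The eat-4 signal was 5.05, 4.28 and 4.86 in C-SPION 1 to 3, against 5.05, 6.18 and 4.46 in control 1 to 3. The groups overlapped widely, and control 2 stood far above the other 5 arrays. The means were 4.73 ± 0.40 with C-SPIONs and 5.23 ± 0.87 in controls (SD, n = 3 each), a difference of -0.50 (95% interval -1.56 to 0.56, adjusted p = 0.677 by limma). Without control 2 the eat-4 difference was -0.025, and without control 3 it was -0.89. Of its relatives, vglu-3 stood at -0.16 (95% interval -1.03 to 0.71) and at +0.16 without control 2. The other, vglu-2, stood at +0.13 (95% interval -0.74 to 1.00), and at -0.15 without C-SPION 3 and -0.11 without control 3. Among the plasma membrane glutamate transporter genes, glt-3 was lower on every C-SPION array, at 6.53, 6.64 and 6.63 with C-SPIONs against 6.94, 7.42 and 7.28 in controls, a difference of -0.61 (95% interval -1.10 to -0.13, adjusted p = 0.337 by limma). Another of them, glt-6, was at 4.63, 3.91 and 4.02 with C-SPIONs, against 4.47, 5.22 and 5.71 in controls. The groups of glt-6 overlapped through C-SPION 1 and control 1, and its difference was -0.95 (95% interval -1.80 to -0.09, adjusted p = 0.371 by limma). Which cells gave the glt-3 and glt-6 signals was not tested.

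Serotonin synthesis begins with tryptophan hydroxylase, the product of tph-1. The tph-1 signal was 5.14, 3.18 and 4.27 in C-SPION 1 to 3, against 4.65, 4.52 and 4.08 in control 1 to 3. The C-SPION arrays held both the highest and the lowest of the 6 values. The difference of means was -0.22 (95% interval -1.35 to 0.91, adjusted p = 0.876 by limma), and without C-SPION 2 it was +0.29. The serotonin reuptake transporter gene mod-5, named after its values were seen, stood at -0.41 (95% interval -1.16 to 0.33), at -0.12 without C-SPION 1 and at -0.68 without C-SPION 2.

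Dopamine synthesis begins with tyrosine hydroxylase, the product of cat-2. The cat-2 signal was 4.21, 3.43 and 3.64 in C-SPION 1 to 3, against 3.49, 3.74 and 4.14 in control 1 to 3. The groups covered nearly the same range. The difference was -0.03 (95% interval -0.70 to 0.64, adjusted p = 0.975 by limma), and it turned to +0.043 after median centring, so no direction is given. The dopamine reuptake transporter gene dat-1, named after its values were seen, stood at -0.19 (95% interval -0.66 to 0.28), and at -0.09 without C-SPION 1.

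Tyramine is made by the tyrosine decarboxylase that tdc-1 encodes, and octopamine from tyramine by the hydroxylase that tbh-1 encodes. The tdc-1 signal was 6.38, 6.88 and 6.57 in C-SPION 1 to 3, against 6.86, 7.03 and 5.92 in control 1 to 3. The C-SPION values lay inside the range of the controls. The difference was +0.0067 (95% interval -0.77 to 0.79, adjusted p = 0.996 by limma), and it turned to -0.016 after quantile normalisation and to -0.34 without control 3.

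The tbh-1 signal was 9.27, 9.47 and 9.19 in C-SPION 1 to 3, against 9.14, 9.18 and 8.90 in control 1 to 3. Every C-SPION array lay above every control array, the closest being C-SPION 3 and control 2. The means were 9.31 ± 0.14 with C-SPIONs and 9.07 ± 0.15 in controls (SD, n = 3 each), a difference of +0.24 (95% interval -0.23 to 0.70, adjusted p = 0.650 by limma), or 1.18-fold. The tbh-1 difference was positive under every alternative tried, and +0.15 without control 3. Markers of the gonadal sheath, where tbh-1 is also made, were listed together with markers of the spermatheca, and this list was mixed. In it 2 of 6 had a positive difference, and the median was -0.13, or +0.022 without control 3 and -0.23 without control 1. The list's mean level ran from 7.50 to 7.83 with C-SPIONs and from 7.58 to 7.87 in controls. Of that list, fln-1, a filamin gene, was at +0.46 (95% interval -0.06 to 0.98) and ceh-18, a POU homeobox gene of the sheath, at -0.57 (95% interval -1.26 to 0.13).

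The monoamines share a vesicular transporter, the product of cat-1. The cat-1 signal was 3.65, 3.36 and 3.60 in C-SPION 1 to 3, against 3.77, 3.63 and 4.24 in control 1 to 3. The groups overlapped only through C-SPION 1, which lay just above control 2, and control 3 was the highest array. The difference was -0.34 (95% interval -0.89 to 0.20, adjusted p = 0.570 by limma). It was -0.16 without control 3. Serotonin and dopamine synthesis also share a cofactor, tetrahydrobiopterin, and a decarboxylase. The cofactor gene cat-4, which encodes GTP cyclohydrolase, was at 6.24, 6.72 and 6.82 with C-SPIONs, against 7.02, 7.49 and 7.46 in controls. Every C-SPION array of cat-4 lay below every control array, a difference of -0.73 (95% interval -1.31 to -0.15, adjusted p = 0.337 by limma). The next enzyme of that cofactor pathway, encoded by ptps-1, stood at -0.46 (95% interval -0.96 to 0.05), and the aromatic amino acid decarboxylase gene bas-1, named after its values were seen, at -0.37 (95% interval -0.88 to 0.14). For ptps-1 and bas-1 too the groups did not overlap. In mean signal, cat-4 stood above 74.4% and ptps-1 above 94.7% of clusters, against 38.8% for bas-1 and 27.8% for cat-1. Which cells gave these signals was not tested.

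**Figure D2:**
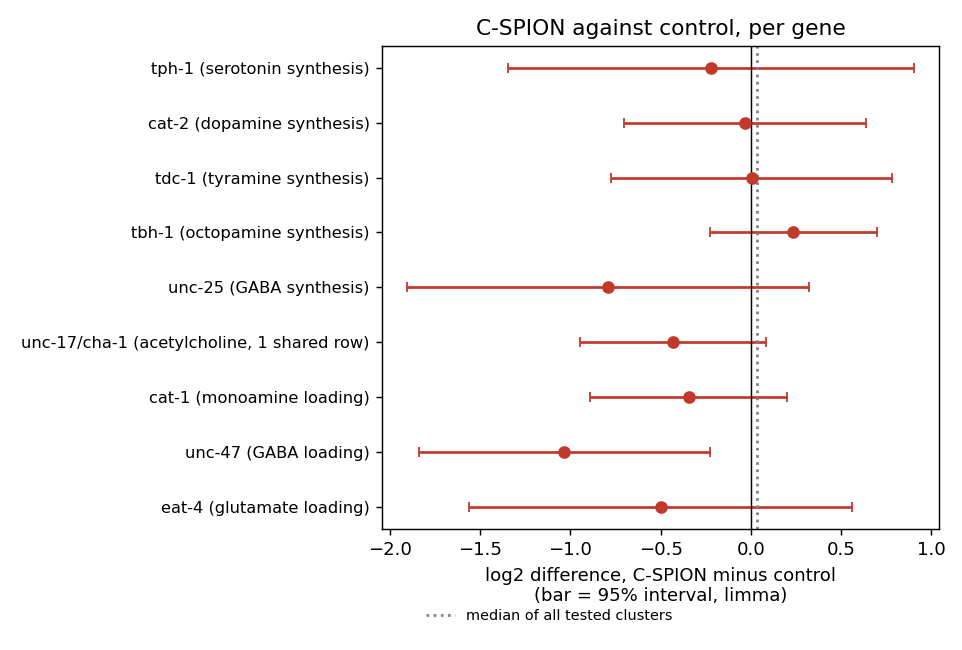
The points are log2 differences, C-SPION minus control, for the 9 clusters, and the bars are 95% intervals from limma; the solid line marks 0 and the dotted line the median of all tested clusters. Only the interval of unc-47 lies wholly below 0, and the points run from -1.03 for unc-47 to +0.24 for tbh-1.

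The intervals are wide. For tph-1, unc-25 and eat-4 they hold differences of more than 1 log2 unit below 0. In signal, 5 of the 9 clusters (tph-1, cat-1, cat-2, eat-4 and the cluster of unc-17 and cha-1) had a mean below that of the median cluster. RMA compresses differences near background, and detection calls were not used here.

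The rest of the pathway was described by lists of genes, none of which passed on its own. Among all tested clusters, 46.7% had a negative difference, 7.3% were lower at an unadjusted p under 0.05 and 9.24% lower without overlap of groups. Of 11 reuptake transporter genes, 10 had a negative difference and 3 an unadjusted p under 0.05, all lower, with a median of -0.41. That median was -0.63 without C-SPION 2 and -0.31 without control 2. Of 24 G protein-coupled receptor genes for transmitters, 21 had a negative difference and 5 an unadjusted p under 0.05, all lower, with a median of -0.39, which was -0.24 without control 2. The groups did not overlap in 7 of the 24, all lower with C-SPIONs. In tyra-2, a tyramine receptor gene, the signal was 4.57, 4.20 and 4.55 with C-SPIONs, against 5.49, 5.61 and 5.08 in controls, a difference of -0.95 (95% interval -1.50 to -0.41, adjusted p = 0.281 by limma). The receptor subunit gene gbb-1, of the metabotropic GABA receptor, and mgl-2, of a metabotropic glutamate receptor, were both at -0.997 with groups apart.

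Of 9 shared synthesis and cofactor genes, 8 had a negative difference, and the median was -0.30, or -0.20 without C-SPION 3. Besides cat-4 and ptps-1, the glutaminase gene glna-3 was at -0.48 (95% interval -0.95 to 4e-04). Of the other loading genes, unc-46, vglu-2 and vglu-3, 2 of 3 had a negative difference, with a median of -0.16 that turned to +0.16 without control 2. The genes of transmitter breakdown were mixed, with 5 of 8 measured members of 13 listed negative, a median of -0.03 and none under 0.05 unadjusted. That median had no stable sign, being +0.078 without control 2 and -0.10 without control 1. Its amx-1, a monoamine oxidase family gene, stood at +0.61 (95% interval -0.04 to 1.26). Of 16 transcription factor genes that set transmitter identity, 4 had a positive difference, 1 stood at 0 and the rest had a negative one. Their median was -0.22, and 1 was under 0.05 unadjusted, near the 7.3% of all tested clusters that were lower at that threshold. That one was unc-3, a factor of cholinergic motor neurons, at -0.70 (95% interval -1.36 to -0.05, adjusted p = 0.380 by limma), followed by cfi-1 at -0.72 and mec-3, a factor of touch receptor neurons, at -0.52. The median of these factors was -0.11 without control 3. Without C-SPION 2 unc-3 was at -0.45, and without C-SPION 3 cfi-1 was at -0.40. The mec-3 difference was -0.78 without control 3 and -0.38 without control 2.

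**Figure D3:**
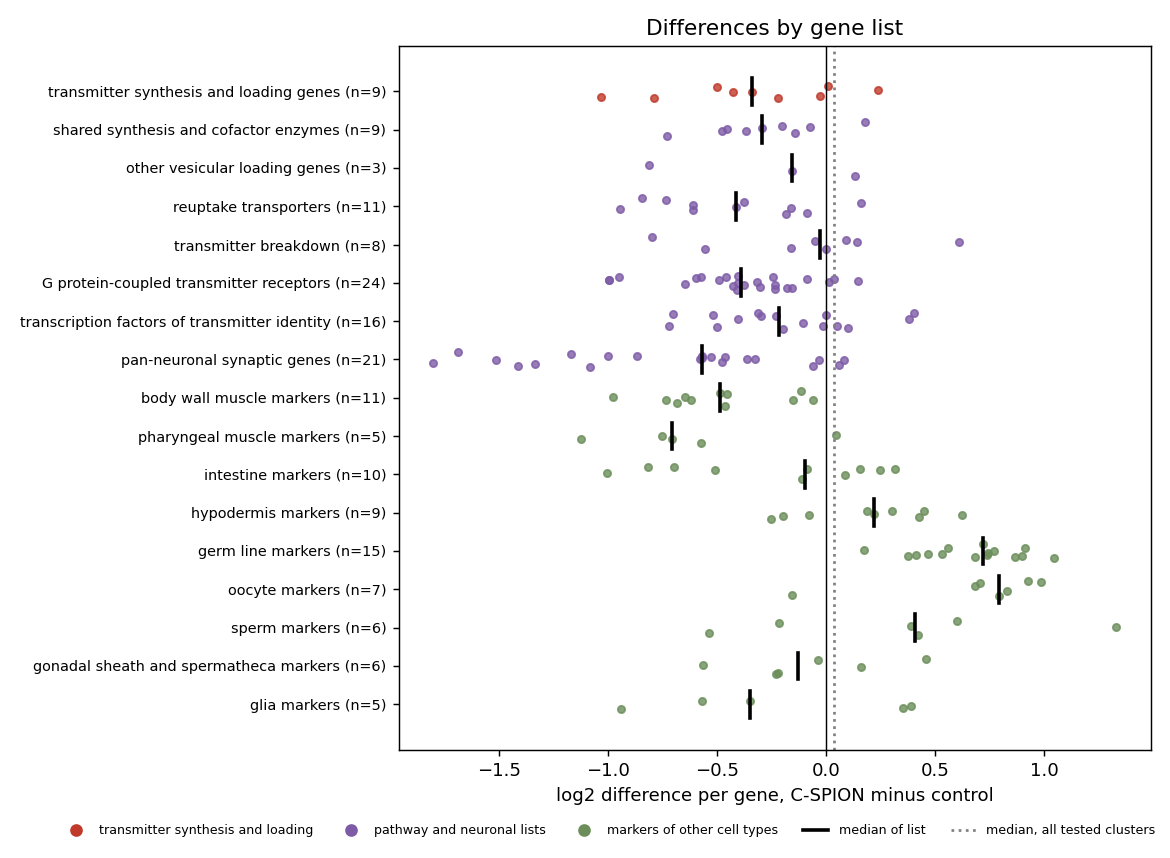
Each point is the log2 difference of 1 gene, C-SPION minus control, by list, with the list median as a black bar and the median of all tested clusters as a dotted line; vertical scatter within a list has no meaning. The transmitter synthesis and loading genes span -1.03 to +0.24 around a median of -0.34, and the pan-neuronal genes reach -1.80.

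Genes in use across neurons, many of them for synaptic release, were set beside the transmitter genes, because they share the tissue but not the transmitter. Of 21 such pan-neuronal genes, 19 had a negative difference, against 46.7% of all tested clusters. An unadjusted p under 0.05 was found in 10, all lower, against 7.3% of all tested clusters. The median of the 21 was -0.57, with -0.45 without control 2 and -0.76 without control 3. Groups did not overlap, with C-SPIONs lower, in 9.24% of all tested clusters and in 12 of the 21. Among them ric-4, which encodes the SNAP-25 homologue, stood at -1.41, sng-1, synaptogyrin, at -1.80 and snt-1, synaptotagmin, at -1.51, with limma adjusted p from 0.262 to 0.264.

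The arrays of a group were not alike. Relative to each cluster's control mean, the 9 transmitter clusters averaged -0.05, -0.55 and -0.43 in C-SPION 1 to 3, against 0.02, 0.28 and -0.30 in control 1 to 3. C-SPION 1 thus lay between control 1 and control 3. The pan-neuronal list stood at -0.51, -0.82 and -0.92 in C-SPION 1 to 3, against -0.06, 0.29 and -0.22 in control 1 to 3, so its groups did not overlap. In both lists control 2 was the highest array. Control 2 held the highest value of the 6 arrays in 4 of the 9 transmitter clusters, and C-SPION 2 the lowest in 4.

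Markers of other cell types also differed in mean between the groups. Of 15 germ line markers, 15 had a positive difference, with a median of 0.72, or 0.455 without control 3 and 0.85 without control 2. Groups did not overlap, with C-SPIONs higher, in 9.4% of all tested clusters and in 12 of these markers. Their mean level ran from 7.79 to 8.26 with C-SPIONs and from 6.95 to 7.73 in controls. Of 7 oocyte markers 6 had a positive difference, with mean levels of 8.51 to 8.81 with C-SPIONs and 7.61 to 8.25 in controls. The median of the oocyte list was 0.79, or 0.51 without control 3. Examples with a positive difference were the germ line Notch receptor gene glp-1 at +0.91 and the P granule helicase gene glh-4 at +1.04. Among the oocyte markers, the yolk receptor gene rme-2 stood at +0.98 and cbd-1, an eggshell gene, at +0.79. The oocyte marker with a negative difference was perm-2, named after its values were seen, at -0.16. Its signal was 11.88, 11.93 and 11.86 in C-SPION 1 to 3, against 11.97, 12.05 and 12.12 in control 1 to 3. Every C-SPION array of perm-2 lay below every control array. Of 6 sperm markers 4 had a positive difference, with mean levels of 4.24 to 4.88 with C-SPIONs and 4.09 to 4.30 in controls, spe-11 being at +1.33 and fer-1 at +0.60. The other 2 sperm markers had a negative difference, and the median of the list was +0.405, or +0.23 without C-SPION 3.

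Muscle markers stood on the other side. Of 11 body wall muscle markers, 11 had a negative difference, with a median of -0.49 and mean levels of 7.59 to 8.08 with C-SPIONs and 8.16 to 8.66 in controls. The paramyosin gene unc-15 was at -0.65 and the myosin gene unc-54 at -0.49. Of 5 pharyngeal muscle markers 4 had a negative difference, with mean levels of 6.27 to 6.39 with C-SPIONs and 6.68 to 7.16 in controls, tnc-2, a troponin C gene, being at -1.13 and the myosin gene myo-1 at -0.71.

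Of 10 intestine markers 6 had a negative difference, with mean levels of 7.57 to 7.77 with C-SPIONs and 7.73 to 8.06 in controls, the intermediate filament gene ifb-2 being at -0.82 and the actin gene act-5 at -1.01. The other 4 intestine markers had a positive difference, and the median of the list was -0.10. Of 9 hypodermis markers 6 had a positive one, with mean levels of 6.59 to 6.78 with C-SPIONs and 6.33 to 6.69 in controls, lin-26 being at +0.62 and elt-1 at +0.43. The other 3 hypodermis markers had a negative difference. The median of the list was +0.22, or +0.10 without C-SPION 2 and +0.39 without C-SPION 1. Of 5 glia markers 3 had a negative one, with mean levels of 4.78 to 5.17 with C-SPIONs and 5.08 to 5.22 in controls, daf-6 being at -0.94 and vap-1 at -0.57. The other 2 glia markers had a positive difference, and the median of the list was -0.35, or -0.037 without C-SPION 3. None of these markers passed across all clusters, and no marker is listed at 0. The part of these tissues in the transmitter gene values was not tested.

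**Figure D4:**
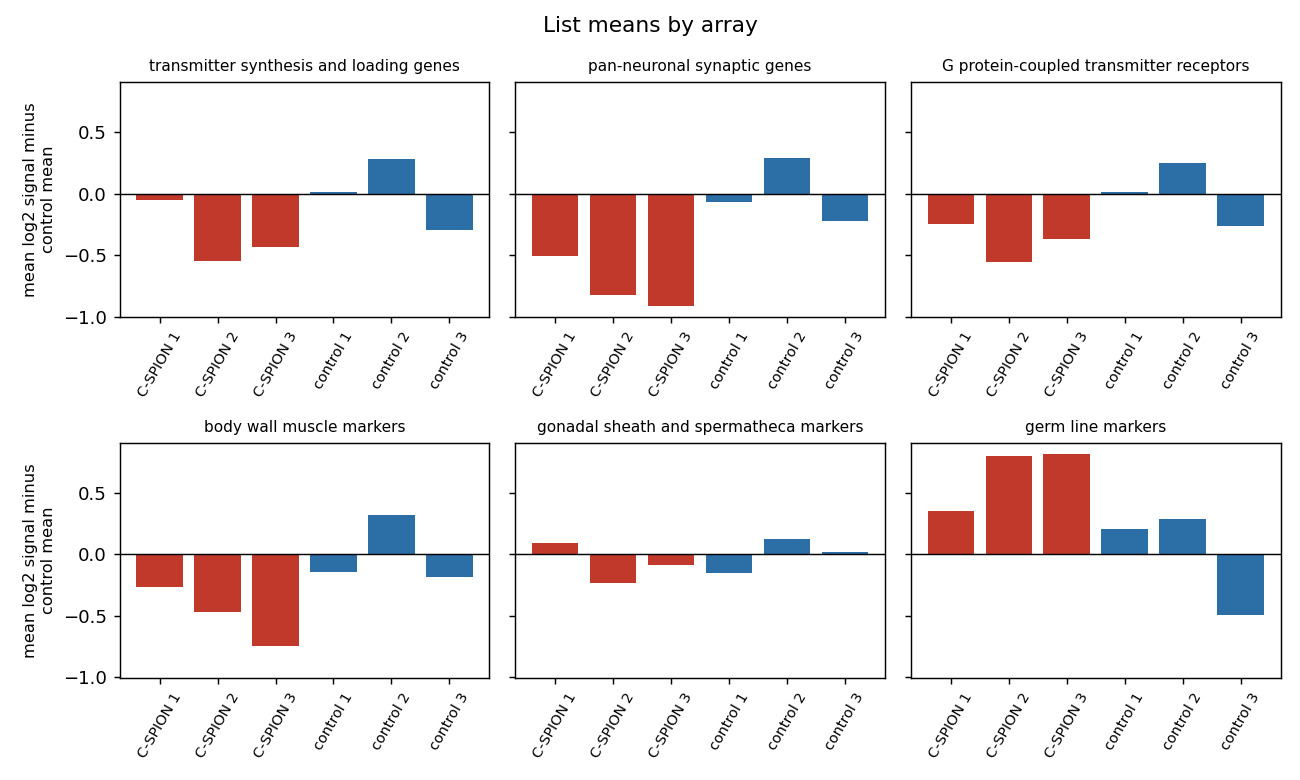
Bars give, for each of 6 lists, the mean log2 signal of the list on each array minus the mean of the control arrays, C-SPION in red and control in blue. For the transmitter synthesis and loading genes the bars are -0.05, -0.55 and -0.43 in C-SPION 1 to 3, and control 3 at -0.30 lies below C-SPION 1.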

How the data were processed

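The authors' deposited values are log2 signals, for which the submitters' processing notes name RMA and Affymetrix Expression Console without versions. The settings and the genome build are not stated there. RMA normalises arrays to each other, so a change of total RNA per animal is not visible. The number of arrays limits the precision. Separate cultures are not stated for the 3 samples per group, and p-values therefore reflect the spread of these samples only, possibly a technical one. The source name of control 3 repeats that of control 2, and the titles were used.

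Of 29317 clusters, 26192 with a symbol were tested, 646 of them with several symbols; symbols were updated to RefSeq (WBcel235) for 25495. Differences were fitted with limma 3.58.1 in R 4.3.3 (lmFit, eBayes, group only, two-sided, Benjamini-Hochberg, threshold 0.05), and the fit was tested on simulated data. Each gene has 1 cluster, so the choice of the brightest had no effect. Genes were named by rule: all 10 members, the 3 smallest unadjusted p of each pathway list and the 2 smallest of each marker list. Members and lists were chosen with earlier results of these data known. Figures were drawn with matplotlib 3.10.9. The alternatives tried were the replicate number as a block, omission of each array, 2 other normalisations, all or only brighter clusters, other eBayes settings, array weights, a threshold of 0.1 and an ordinary linear model; leaving out the shared cluster was added after seeing the data.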

Additional observations from a re-analysis of the deposited data

How the results depend on the processing

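Under every alternative, 0 of the transmitter clusters had an adjusted p under the threshold in use. Leaving out each array in turn gave 0 to 63 called clusters in the whole table, 0 to 2 transmitter clusters under 0.05 unadjusted, 6 to 7 with a negative difference and a median from -0.58 to -0.17. Array weights put 3 transmitter clusters under 0.05 unadjusted and the ordinary linear model 0, against 1. With array weights the adjusted p of these 3 ran from 0.113 to 0.184 by limma. The share of all clusters under 0.05 unadjusted is given here for the main fit only. The counts of transmitter clusters under the alternatives therefore cannot be read against it. With only clusters above the median signal, 4 remained to be tested, 2 of them negative. Among single genes, omitting 1 array put tph-1 between -0.69 and 0.29, cat-2 between -0.26 and 0.14, tdc-1 between -0.34 and 0.22, cho-1 between -0.46 and 0.037, vglu-2 between -0.15 and 0.42, vglu-3 between -0.55 and 0.16, gta-1 between -0.12 and 0.047, ace-1 between -0.10 and 0.19 and ace-4 between -0.29 and 0.048. tdc-1 was at -0.016 after quantile normalisation and -0.15 with array weights; after median centring cat-2 was at 0.043, gta-1 at 0.02 and ace-1 at 0.07, and ace-1 was at 0.0803 after quantile normalisation. The cause was not tested. Without the cluster of unc-17 and cha-1 the median was -0.28. With the replicate number as a block the median was -0.34, and 1 transmitter cluster was under 0.05 unadjusted. Same-numbered arrays correlated at 0.222, 0.203 and 0.008 in their deviations from the group means. Arrays of different numbers correlated at -0.266 to 0.058. The labels name no batch, and the main fit did not treat the numbers as pairs. Signal over background is unknown, which limits the dim clusters most.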
